A study of Mus musculus with 4 samples.

Results

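The histone genes listed for 3T3-L1 preadipocytes comprised 54 symbols, 42 of them replication-dependent and 12 replication-independent variants, out of 16709 symbols in all. They were chosen by name, as the symbols that start with Hist1h to Hist4h, H2af, H3f3 or H1f, a rule that uses no measured value. 3T3-L1 is an established clonal mouse line of fibroblast-like cells that can be turned into adipocytes. One group had been exposed for 24 h to 25 µM Nutlin-3a dissolved in DMSO. Nutlin-3a blocks MDM2 from binding p53 and so activates p53. The other group had received the same amount of DMSO alone, so both groups carried the solvent, and each comprised 2 biological replicates grown in medium with serum.

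Histones package DNA into nucleosomes, built from the core histones H2A, H2B, H3 and H4, with the linker histone H1 bound between them. Replication-dependent histone genes lie in clusters, mostly lack introns, and are transcribed mainly in S phase, when newly copied DNA needs new nucleosomes. Their messenger RNAs are the known exception among animal messages in that they end in a conserved stem-loop, bound by the protein SLBP, and usually carry no poly(A) tail. Replication-independent variants such as H3.3 or H2A.Z are made throughout the cell cycle from ordinary polyadenylated messages, and some replication-dependent genes are known to switch to polyadenylated messages in cells that leave the cycle. Whether poly(A) RNA was selected for these libraries is not given in the sources used here, and it bears on every level below.

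Values are FPKM, which scale fragment counts by transcript length and library size, and the authors' table gives 1 value per transcript and group. The table used here holds no value per library, so no level has a replicate error, no difference was tested, and higher or lower describes the 2 values only. Depth is unknown. The summed FPKM was 967341 with Nutlin-3a and 980491 with DMSO. The p53 target Cdkn1a was 10.98-fold higher with Nutlin-3a (386 against 35.2 FPKM). Of 8 fixed preadipocyte and fibroblast markers all were listed above 9 FPKM in both groups, and 5 of them were at least 2-fold lower with Nutlin-3a on the FPKM + 1 scale, as were 6.14% of all genes compared. Markers of macrophages, endothelium, epithelium and skeletal muscle stayed at or under 6.52 FPKM with Nutlin-3a and 2.91 FPKM with DMSO. Among these markers, Ptprc, Kdr, Epcam and Myod1 were listed at 0 in DMSO and under 0.1 FPKM with Nutlin-3a. Other members of the same lists stood higher with Nutlin-3a. They include Cd68 (6.52 against 2.91 FPKM), Csf1r (0.801 against 0.549 FPKM), Pecam1 (1.57 against 0.0260 FPKM) and Ckm (0.906 against 0 FPKM). All of the 17 markers listed for these cell types except Tek had the higher value with Nutlin-3a. Their summed levels were 7.58 against 3.46 FPKM for macrophages, 1.72 against 0.174 for endothelium, 0.823 against 0.276 for epithelium and 2.83 against 0.368 for skeletal muscle, and their part in the histone values was not tested.

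The stem-loops show where the listed gene models end, so they are given first. They do not show which message ends were sequenced. In GENCODE M21 (GRCm38, the assembly also called mm10), 25 of the 42 replication-dependent genes held the histone stem-loop consensus, 16 bases of which 4 could vary, in the 3′ untranslated region of their longest coding transcript. Across all 21877 protein-coding symbols, 47 (0.215%) held it in any part of a coding transcript. Among the 17 replication-dependent genes without it, 10 had no annotated 3′ untranslated region. The variant H2afx, whose message is known to exist in a stem-loop and a polyadenylated form, was the only one of the 12 replication-independent genes with the pattern. Below, capitals mark the stem-loop of 16 bases, with 5 flanking bases on each side, for genes that the results turn on and for H2afx.
Hist1h4h: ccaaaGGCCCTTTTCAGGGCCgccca
Hist1h4i: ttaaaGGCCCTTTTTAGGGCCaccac
Hist4h4: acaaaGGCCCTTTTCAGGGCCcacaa
Hist1h1c: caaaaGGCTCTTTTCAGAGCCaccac
Hist3h2a: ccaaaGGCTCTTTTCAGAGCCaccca
H2afx: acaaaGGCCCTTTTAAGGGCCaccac

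On the mm10 assembly these stem-loops lie at chr13:23531458-23531473 on the plus strand (Hist1h4h), chr13:22040966-22040981 on the minus strand (Hist1h4i), chr6:136803998-136804013 on the minus strand (Hist4h4), chr13:23739512-23739527 on the plus strand (Hist1h1c), chr11:58955172-58955187 on the plus strand (Hist3h2a) and chr9:44335240-44335255 on the plus strand (H2afx). The form with GGCTC and GAGCC stems was found in 14 replication-dependent genes with the loop sequence of Hist1h1c, and the 4 genes that share the stem-loop of Hist1h4h and Hist4h4 all encode H4. Of the 25 replication-dependent genes with the pattern, 24 had a listed gene model that ended 4 to 8 bases past the stem-loop, where the cleaved message is known to end. The exception was Hist1h2be, whose listed model covers 37455 bases and reaches over Hist1h1e. GENCODE carries longer 3′ ends for many of them, such as 840 bases past the stem-loop in Hist1h1c, 1643 in Hist3h2a and 2445 in Hist4h4. Fragments from those longer ends lie outside the listed models. The listed model of H2afx, by contrast, ran 818 bases past its stem-loop.

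Most replication-dependent genes were listed at low levels, while most variants were abundant. The median replication-dependent gene was listed at 0.360 FPKM with Nutlin-3a and 0.314 FPKM with DMSO, and the median variant gene at 90.2 and 78.7 FPKM. Summed over the 42 replication-dependent genes, the level was 125.6 FPKM with Nutlin-3a and 69.2 FPKM with DMSO, a 1.82-fold higher value with Nutlin-3a. The 12 variant genes summed to 1512 and 1484 FPKM, 12.0 times the replication-dependent sum with Nutlin-3a and 21.4 times with DMSO. A single gene, Hist1h2bc, held 53.4% of the replication-dependent sum with Nutlin-3a and 40.1% with DMSO. Without it the sums were 58.5 and 41.4 FPKM, 1.41-fold higher with Nutlin-3a. That remainder included the H4 genes Hist1h4h (9.24 with Nutlin-3a against 1.12 FPKM with DMSO) and Hist1h4i (11.9 against 1.92 FPKM). With these H4 genes also left out, the sum was not higher with Nutlin-3a.

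**Figure D1:**
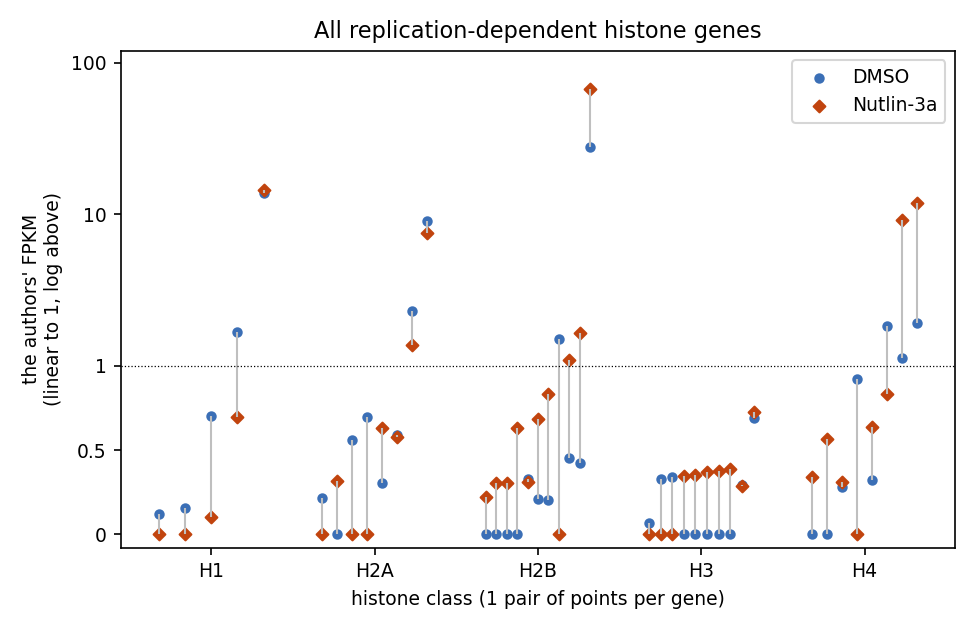
FPKM of all 42 replication-dependent histone genes by class, with 1 pair of points per gene (blue circle DMSO, red diamond Nutlin-3a) on an axis that is linear up to 1 FPKM and logarithmic above. Most pairs lie under 1 FPKM, all 10 H3 genes among them, and Hist1h2bc, at 67.0 and 27.8 FPKM, is the highest pair.

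Genes were compared where the mean of both groups reached 1 FPKM and both values were above 0, which 9 replication-dependent and 10 variant genes did. A gene was called higher or lower at a 2-fold or larger difference of FPKM + 1, and the log2 ratios below are on this scale unless called plain. Over all 10331 genes compared, 6.62% were called higher and 6.14% lower with Nutlin-3a, with a median log2 ratio of 0.07. Of the 19 histone genes compared, 4 were called higher (Hist1h4h, Hist1h4i, Hist1h2bc and H2afj) and 1 lower (H2afy2), while 14 lay within the limit. The median log2 ratio was 0.07 over the 9 replication-dependent genes and -0.13 over the 10 variants, a difference of 0.20. Of the 9, Hist2h2be (1.64 against 0.426 FPKM) reached the minimum only through its Nutlin-3a value. Hist1h1e (0.696 against 1.66 FPKM) and Hist4h4 (0.834 against 1.83 FPKM) reached it only through their DMSO values. The minimum thus bears on this median, and nothing is read from it or from the difference. The replication-dependent median depended on the minimum: it was 1.24 over the 5 genes with a mean of at least 5 FPKM. Of these, Hist1h4h (9.24 against 1.12 FPKM) and Hist1h4i (11.9 against 1.92 FPKM) reached that mean only through the Nutlin-3a value. That filter thus favours genes high with Nutlin-3a, and nothing is read from its median. After correction for GC content the median over the 9 genes was 0.24, against 0.08 over all genes. Among the 9, 3 were called higher and none lower, and among the 10 variants 1 each way.

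**Figure D2:**
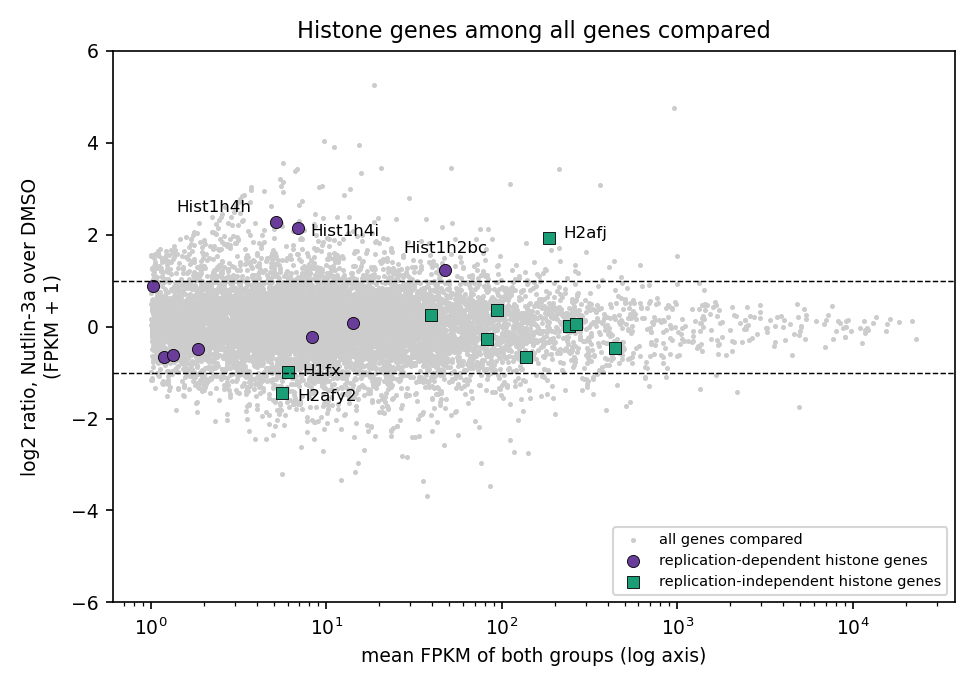
Log2 ratio of Nutlin-3a over DMSO on the FPKM + 1 scale against the mean FPKM of both groups (log axis), for all 10331 genes compared (grey), the 9 replication-dependent histone genes (purple circles) and the 10 variants (green squares). Dashed lines mark the 2-fold limit, which Hist1h4h, Hist1h4i, Hist1h2bc and H2afj pass upward and H2afy2 downward, with H1fx just inside it.

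The H4 genes held the highest ratios among the histone genes. H4 is the core histone whose many gene copies encode the same protein. Hist1h4h was listed at 9.24 FPKM with Nutlin-3a and 1.12 FPKM with DMSO, 8.23-fold higher, with a log2 ratio of 2.27. Hist1h4i had 11.9 against 1.92 FPKM, 6.19-fold higher, with a log2 ratio of 2.14. These ratios lay at percentiles 99.5 and 99.3 of all genes compared. The listed models of both genes are on chromosome 13, from 23531044 to 23531478 and from 22040960 to 22041362 (mm10), and end a few bases past the stem-loops shown above. Hist4h4, the H4 gene on chromosome 6, went the other way on the plain scale with 0.834 against 1.83 FPKM, and stayed within the limit at a log2 ratio of -0.62. The other 5 H4 genes (Hist1h4a, Hist1h4d, Hist1h4k, Hist1h4m and Hist2h4) were all under the minimum mean, between 0 and 0.638 FPKM with Nutlin-3a and between 0 and 0.925 FPKM with DMSO. Without Hist1h4h and Hist1h4i, the class summed to 2.69 FPKM with Nutlin-3a and 3.35 FPKM with DMSO.

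H4 copies are so alike that fragments can be shared between them. Of the 50-base words in the coding sequence of Hist1h4h, 72.3% also occurred in transcripts of other genes, and in Hist1h4i 71.2%. Over all replication-dependent genes the median was 72.3%, with 37 of 42 above 10%, against a median of 12.1% over the variants. How the quantifier divided such fragments is not given in the sources used here, so the split between single H4, H3, H2A and H2B copies is uncertain. Summed over its 8 listed genes, H4 stood at 23.8 FPKM with Nutlin-3a and 6.40 FPKM with DMSO, 3.72-fold higher. Hist1h4j, the gene that shared the most words with Hist1h4h, is not among the listed symbols. The sum therefore does not cover every H4 copy, and the part of unlisted copies in it was not tested.

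Promoters are shown for the H4 pair and for H2afj, the genes with the highest ratios. RefSeq (GRCm38.p6) gave 49 promoter sequences for 48 of the 54 symbols, each 250 bases before and 50 after the start. No sequence was found for Hist1h2bc, Hist2h2be, Hist1h3a, Hist1h3f, Hist2h4 or H2afx, and Hist1h2be was entered more than once. Capitals mark, on either strand, the motifs searched: the TATA box TATAAA, the CCAAT box CCAAT, the octamer ATTTGCAT, the cell cycle element CHR with TTTGAA, the letters GGTCCG, and the p53 decamer consensus by name. No motif holds another within it. GGTCCG belongs to a known promoter element of H4 genes and was added after the sequences had been seen. The first lies at chr13:23530794-23531093 (plus strand), the second at chr13:22041313-22041612 (minus strand) and the third at chr6:136807998-136808297 (plus strand).
Hist1h4h: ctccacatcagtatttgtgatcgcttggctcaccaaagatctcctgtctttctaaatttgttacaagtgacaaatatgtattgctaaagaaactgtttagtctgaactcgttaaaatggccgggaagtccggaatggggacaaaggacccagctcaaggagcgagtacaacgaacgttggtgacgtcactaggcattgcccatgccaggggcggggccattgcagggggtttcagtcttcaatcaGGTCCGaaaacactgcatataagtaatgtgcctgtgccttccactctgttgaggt
Hist1h4i: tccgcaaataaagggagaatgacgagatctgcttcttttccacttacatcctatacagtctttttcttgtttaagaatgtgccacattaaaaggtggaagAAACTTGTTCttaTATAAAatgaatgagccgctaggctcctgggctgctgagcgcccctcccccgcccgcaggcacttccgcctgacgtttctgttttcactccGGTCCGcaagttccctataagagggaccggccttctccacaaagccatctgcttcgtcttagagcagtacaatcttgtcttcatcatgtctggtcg
H2afj: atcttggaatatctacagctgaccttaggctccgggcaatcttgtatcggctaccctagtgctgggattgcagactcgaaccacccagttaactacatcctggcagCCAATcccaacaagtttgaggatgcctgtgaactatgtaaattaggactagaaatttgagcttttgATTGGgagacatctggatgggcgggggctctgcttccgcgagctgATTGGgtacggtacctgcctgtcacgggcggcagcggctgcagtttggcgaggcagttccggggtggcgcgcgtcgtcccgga

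GGTCCG was present in 6 of 7 promoters of replication-dependent H4 genes (85.7%), in 4 of 11 variant promoters (36.4%) and in 8.25% of all 32851 promoters. The 11 variant promoters include that at the position listed for H2afb1, which belongs to H2al2a in RefSeq and held none of the motifs. Hist1h4h and Hist1h4i both held GGTCCG, as did Hist4h4, which was listed lower but within the limit (0.834 against 1.83 FPKM). Any relation of GGTCCG to the ratios was not tested. The CCAAT box was in all 18 promoters of H2A and H2B genes, all 8 of H3 and all 5 of H1, but in 2 of 7 of H4, against 37.4% of all promoters. The octamer, the binding sequence of POU factors, was in 9 of the 18 H2A and H2B promoters and 1.74% of all promoters. The TATA box was in 60.5% of replication-dependent and 9.09% of variant promoters, against 13.6% of all. The CHR element was in 42.1% of replication-dependent promoters and 17.9% of all. A p53 decamer was found in 3 of 38 replication-dependent promoters (7.89%), those of Hist1h4i, Hist1h4k and Hist3h2ba, in none of 11 variant promoters, and in 8.36% of all. These are matches of letters in a window of 300 bases, and say nothing of binding.

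H2B was the replication-dependent class with the highest sum, most of it from Hist1h2bc (73.0 against 30.9 FPKM with it, 6.03 against 3.13 FPKM without it). Hist1h2bc is an H2B gene on chromosome 13 whose listed model runs from 23684199 to 23692480 (mm10), and in GENCODE it has 2 exons and a 3′ untranslated region of 742 bases with the polyadenylation signal AATAAA and without the stem-loop pattern. It was listed at 67.0 FPKM with Nutlin-3a and 27.8 FPKM with DMSO, 2.41-fold higher, with a log2 ratio of 1.24. Its coding sequence shared 97.6% of 50-base words with other genes, and Hist1h2bg was the gene that shared the most. Hist1h2bg is not among the listed symbols, so its fragments, if any, could be counted under Hist1h2bc, which was not tested. Hist2h2be, which also has a long 3′ untranslated region with AATAAA (2192 bases) and no stem-loop pattern, had 1.64 against 0.426 FPKM. That is a plain 3.85-fold higher value at low level and a log2 ratio of 0.89, inside the limit, and its coding sequence shared no 50-base word with another gene. Hist1h2be summed to 1.09 against 0.452 FPKM and stayed under the minimum mean. Hist1h2bk was the only histone gene listed at 0 with Nutlin-3a and above 1 FPKM with DMSO (1.51 FPKM), and no fold is given because a 0 can be a failed estimate. The other 7 H2B genes reached at most 0.835 FPKM with Nutlin-3a and 0.329 FPKM with DMSO.

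The replication-dependent H1 and H2A genes that were compared, 2 of each class, all lay within the limit. Hist1h1c, a linker histone gene, was listed at 14.6 FPKM with Nutlin-3a and 13.8 FPKM with DMSO, a log2 ratio of 0.07. The other 4 H1 genes lay lower with Nutlin-3a, all at low level. Hist1h1e had 0.696 against 1.66 FPKM, a plain 2.39-fold lower value with a log2 ratio of -0.65. Hist1h1b had 0.102 against 0.705 FPKM and was not compared, and Hist1h1a and Hist1h1d were listed at 0 with Nutlin-3a and at 0.119 and 0.154 FPKM with DMSO. Together these 4 summed to 0.797 FPKM with Nutlin-3a and 2.64 FPKM with DMSO. Among H2A genes, Hist3h2a on chromosome 11 had 7.58 against 8.997 FPKM (log2 ratio -0.22) and Hist1h2ai had 1.38 against 2.32 FPKM (log2 ratio -0.48). All 50-base words of the Hist3h2a coding sequence also occur in an annotated transcript of the overlapping gene Trim17, so fragments of the 2 genes cannot be told apart there. Hist1h2ab, the next H2A gene by level, had 0.580 against 0.593 FPKM.

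No replication-dependent H3 gene reached the minimum. The 10 H3 genes summed to 2.85 FPKM with Nutlin-3a and 1.72 FPKM with DMSO. Hist1h3i was the highest with 0.729 against 0.689 FPKM, and Hist1h3a had 0.288 against 0.295 FPKM. Hist1h3e was listed at 0.391 FPKM with Nutlin-3a and at 0 in DMSO. Of the 10 genes, 5 were at 0 in DMSO and 3 with Nutlin-3a. Single values of this size carry little information. Among all 33 replication-dependent genes under the minimum, 12 (36.4%) were at 0 in DMSO and 10 (30.3%) with Nutlin-3a. Over all 6329 symbols that lay under it, 36.4% were at 0 in DMSO and 7.27% with Nutlin-3a. Counted over all 54 histone genes, 10 were at 0 with Nutlin-3a and above 0 in DMSO, against 2.79% of all listed symbols, and 14 the other way round, against 14% of all.

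More of the replication-dependent genes with a long annotated 3′ end reached the minimum. Of 13 genes with an annotated 3′ untranslated region over 500 bases, 6 reached the minimum mean (46.2%), and of 29 with 500 bases or less 3 did (10.3%). The medians of the mean FPKM were 0.773 and 0.292. The bound of 500 bases was chosen after the values had been seen, and the relation is a description with no test. Among the 6, Hist2h2be, Hist1h1e and Hist4h4 reached the minimum through 1 group only and were under 1 FPKM in the other. The 29 include 10 genes with no annotated 3′ untranslated region, 1 of which reached the minimum. Hist1h1c, Hist1h1e, Hist3h2a and Hist4h4 were among those 6, and their listed models ended 4 or 5 bases past the stem-loop. Most of the long annotated end of these genes thus lay outside the models that were measured. Exceptions stood on both sides: Hist1h4h, with 93 bases, and Hist1h4i, with 376, were measurable, while Hist1h1d, with 4931 bases, had a mean of 0.0772 FPKM. The median was 0.316 FPKM over genes with the stem-loop pattern and 0.321 FPKM over those without it. Of the 17 without it, 10 had no annotated 3′ untranslated region in which it could be found. These medians therefore cannot show whether the stem-loop bears on the level. AATAAA was in the 3′ untranslated region of 14 genes, 5 of which reached the minimum, against 4 of the 28 others. Those 28 include the 10 genes with no annotated 3′ untranslated region, where AATAAA could not be found, so nothing is read from these counts.

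**Figure D3:**
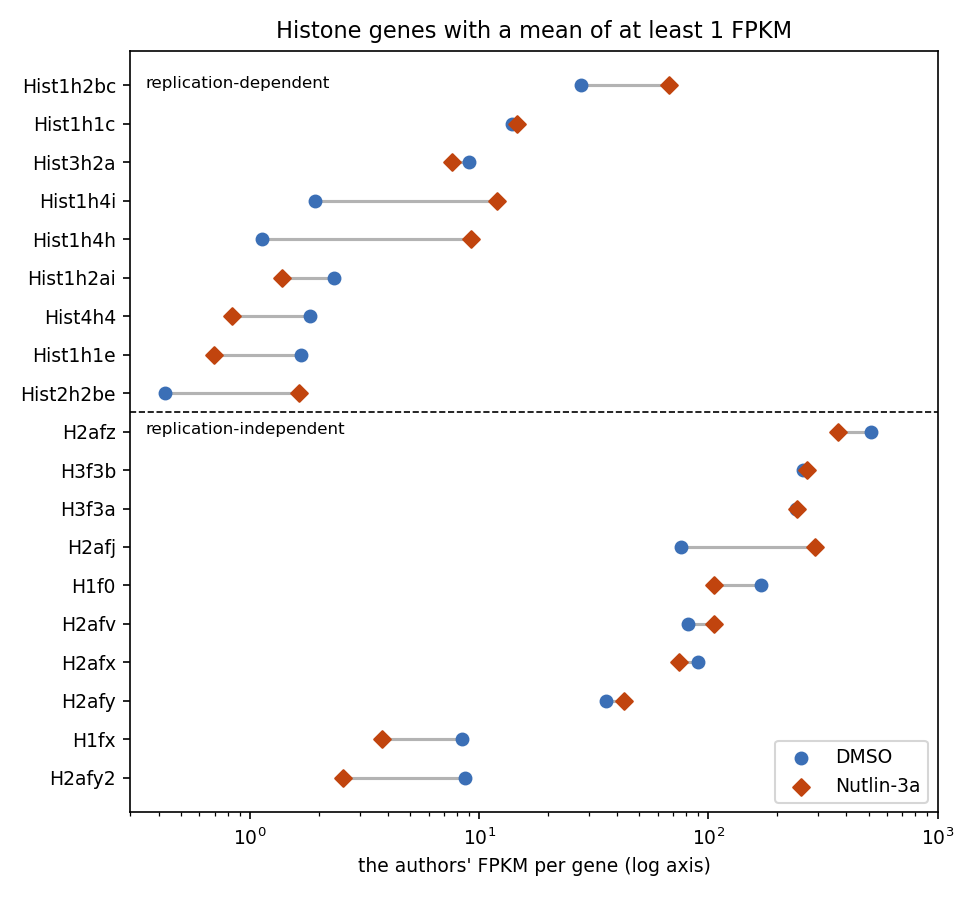
FPKM in DMSO (blue circles) and Nutlin-3a (red diamonds) on a log axis for the 19 histone genes with a mean of at least 1 FPKM, replication-dependent genes above the dashed line and variants below it. The widest gaps are those of Hist1h4h and Hist1h4i, H2afj stands out among the abundant variants at 293 against 75.8 FPKM, and H3f3a and H3f3b nearly coincide.

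Among the variants, H2afj differed most between the groups. It encodes H2A.J, an H2A variant with a distinct C-terminal end that has been described as accumulating in senescent fibroblasts. H2afj was listed at 293 FPKM with Nutlin-3a and 75.8 FPKM with DMSO, 3.87-fold higher, with a log2 ratio of 1.94 at percentile 99.1 of all genes compared. Its listed model runs from 136808248 to 136810074 on chromosome 6 (mm10), and in GENCODE the gene has a single exon with a 3′ untranslated region of 1345 bases. The coding sequence shared 11.2% of 50-base words with other genes. With this difference H2afj made up 33.0% of the FPKM summed over the listed H2A variants with Nutlin-3a, against 9.40% with DMSO. Its neighbour Hist4h4 starts 3817 bases away on the opposite strand and had the lower value with Nutlin-3a, as given above. Without H2afj, the variants summed to 1219 FPKM with Nutlin-3a and 1408 FPKM with DMSO.

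H2A.Z, the variant placed around transcription start sites, is encoded by H2afz and H2afv, and these 2 genes went opposite ways within the limit. H2afz had 369 FPKM with Nutlin-3a and 514 FPKM with DMSO, a log2 ratio of -0.48. H2afv had 105.9 against 81.7 FPKM, a log2 ratio of 0.37. The sum was 475 against 595 FPKM, and the share of H2afv in it was 22.3% with Nutlin-3a and 13.7% with DMSO. All 50-base words of the H2afz coding sequence also occurred in other genes, and Gm8203 shared the most, so fragments could be assigned elsewhere. H2afx, which encodes the H2A.X that is phosphorylated at DNA breaks, had 74.5 against 90.3 FPKM, and its log2 ratio was -0.27, or 0.02 after correction for GC content.

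The H3.3 genes were nearly equal in both groups. H3.3 is the H3 form put into chromatin outside of replication. H3f3a had 243.8 FPKM with Nutlin-3a and 241 FPKM with DMSO (log2 ratio 0.01), and H3f3b had 269 against 259 FPKM (log2 ratio 0.06), and after correction for GC content these ratios were -0.12 and -0.08. Together they were listed at 180 times the sum of the 10 replication-dependent H3 genes with Nutlin-3a, and at 292 times with DMSO. Since libraries of poly(A) RNA miss messages without a tail, and the library type is unknown here, this proportion is not read as one of H3 messages in the cells.

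The linker variant genes H1f0 and H1fx and the macroH2A2 gene had lower values with Nutlin-3a. H1f0 encodes H1.0, a linker histone known from resting and differentiated cells, and had 105.9 FPKM with Nutlin-3a and 169 FPKM with DMSO, a log2 ratio of -0.67. H1fx, the H1x gene, had 3.74 against 8.37 FPKM, a plain 2.23-fold lower value with a log2 ratio of -0.98, just inside the limit. The H1fx ratio moved with the processing. It was -0.51 after correction for GC content and -0.61 with a pseudocount of 5. After quantile normalization it was -1.06, and with a pseudocount of 0.1 it was -1.14. H2afy2 encodes macroH2A2, an H2A variant with a large macrodomain that is found in silent chromatin. It had 2.54 against 8.66 FPKM, 3.41-fold lower, with a log2 ratio of -1.45. With a pseudocount of 5 in place of 1 the log2 ratio was -0.86 and the call was lost. Its listed model on chromosome 10, from 61715263 to 61783864 (mm10), also overlaps the Aifm2 gene.

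H2afy, the gene of macroH2A1, had a similar sum in both groups, made of transcripts that differed widely. The sum was 42.9 FPKM with Nutlin-3a and 35.9 FPKM with DMSO, a log2 ratio of 0.25. The second listed transcript had 22.3 FPKM in DMSO, 62.2% of the gene, and 0.00566 FPKM with Nutlin-3a. The first had 4.90 FPKM with Nutlin-3a and 0.393 FPKM with DMSO. The third had 28.2 against 9.23 FPKM, and the fourth 9.81 against 3.93 FPKM. With Nutlin-3a the third transcript held 65.7% of the gene, against 25.7% with DMSO. MacroH2A1 is known in splice forms with and without the ability to bind ADP-ribose derivatives, but the listed accessions do not identify which transcript is which, so the splice forms are not named here. Such a split between transcripts of 1 gene is an estimate, and its error is unknown without values per library.

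**Figure D4:**
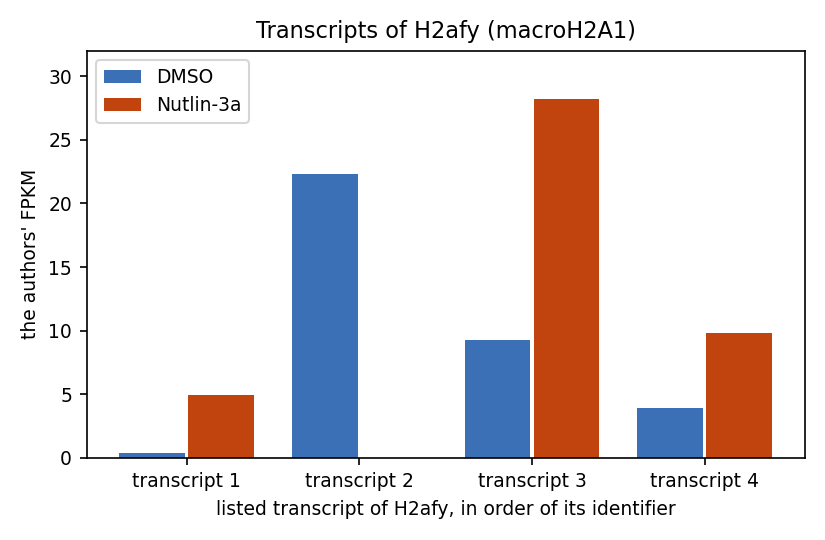
FPKM of the 4 listed transcripts of H2afy, in the order of their identifiers, in DMSO (blue bars) and Nutlin-3a (red bars). The second transcript stands at 22.3 FPKM in DMSO and near 0 with Nutlin-3a, while the other 3 are higher with Nutlin-3a.

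Germline variants were at the edge of detection. H1foo, the oocyte linker histone gene, was listed at 0.145 FPKM with Nutlin-3a and at 0 in DMSO. The symbol H2afb1 was listed at 1.19 FPKM with Nutlin-3a and at 0 in DMSO, but the position given on chromosome 2 belongs to H2al2a in RefSeq, so that value is not read as one of H2afb1. Hist1h2ba, a testis H2B gene, had 0.308 FPKM with Nutlin-3a and 0 in DMSO.

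Genes that process or place histones mostly lay within the limit. The shares over all genes were 6.62% called higher and 6.14% lower. Of 16 histone mRNA processing genes compared, none was called in either direction. A ratio above 0 was found for 11 and below 0 for 5, and the median log2 ratio was 0.20. Ncbp1 lay just inside the limit with 41.0 against 20.2 FPKM, a plain 2.04-fold higher value with a log2 ratio of 0.99. Slbp, which binds the stem-loop, had 49.0 against 43.0 FPKM, and the most abundant members were the Sm protein genes Snrpe (829 against 750 FPKM) and Snrpb (471 against 401 FPKM). The Slbp sum joined a transcript with 34.8 against 19.9 FPKM and another with 11.6 against 23.0 FPKM. Of 29 genes of histone chaperones and deposition, 1 was called higher and none lower, with a median log2 ratio of 0.12. That gene was Dnajc9, a co-chaperone of H3 and H4, with 112.5 against 29.2 FPKM, 3.85-fold higher. The most abundant within the limit were Npm1 (1319 against 1213 FPKM) and the nucleosome assembly gene Nap1l1 (357 against 238 FPKM).

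S phase genes, fixed as a list because replication-dependent histones are made in that phase, did not go one way. Of 37 compared, 4 were called lower and 1 higher, 21 had a ratio below 0, and the median log2 ratio was -0.14. The lower genes were Tk1, thymidine kinase (6.30 against 51.1 FPKM), Uhrf1, a reader of newly copied DNA (7.51 against 18.5 FPKM), the DNA ligase gene Lig1 (17.3 against 36.9 FPKM) and the cyclin gene Ccna2 (11.7 against 25.3 FPKM). The higher gene was Rrm2, a ribonucleotide reductase subunit (31.5 against 10.7 FPKM). Pcna, the sliding clamp, had 203 against 175 FPKM, and Rfc3, a clamp loader subunit, had 57.2 against 41.8 FPKM. The share called lower was 6.14% over all genes, as given above, and nothing particular to this list is read from 4 of 37.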

How the data were processed

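RNA sequencing of total RNA, extracted with TRIzol, covered 4 libraries in 2 groups, per the labels' protocols. Per the submitters' processing notes, the tools and builds include TopHat2 2.0.11 and mm10. The authors deposited FPKM, 1 value per transcript and group; the quantifier, its annotation, any poly(A) selection and the way replicates were combined were not given in the sources used here. Its column headed NUT was taken for Nutlin-3a and DSM for DMSO, the only other group.

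FPKM was summed per symbol (24746 transcripts, 16709 symbols), with a pseudocount of 1, a minimum mean of 1 FPKM and a 2-fold limit. The planned limma test, leave-one-out and blocked fits need values per library and were not run. Of 54 symbols, 53 had a GENCODE gene of that name at the listed position, H2afb1 being the exception, and 44 had a start equal to RefSeq once 1 was added. The accession column was not used, because 52 of the 55 histone transcripts whose accession is in the reference carried that of another gene. Steps were tested on simulated data. Members and lists were chosen with earlier results of these data known. Named were members past the limit, the 3 highest per class, members at 0 in 1 group with at least 1 FPKM in the other, and per list up to 4 past the limit and 2 within it; other names are examples chosen after their values were seen. Python 3.11.15, pandas 2.3.3 and statsmodels 0.14.6 were used.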

Additional observations from a re-analysis of the deposited data

How the results depend on the processing

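No paired analysis was possible because the table holds 1 value per group and none per library, so neither the replicate block nor leaving out a replicate was run. The count of histone genes called higher was 4 in the reported setting and 4 or 5 in every alternative run; Hist1h4h, Hist1h4i, Hist1h2bc and H2afj were called in each. The count called lower was 1, and became 4 with a pseudocount of 0.1, 0 with a pseudocount of 5, 2 after quantile normalization and 5 at a 1.5-fold limit. H2afy2 left the calls with a pseudocount of 5 (log2 ratio -0.86). With a mean of at least 5 FPKM, 5 replication-dependent genes remained, and their median log2 ratio was 1.24 and the difference from the variants 1.37. Hist1h4h and Hist1h4i passed that filter only through their Nutlin-3a values, so nothing is read from this median or difference. With the transcript of highest mean in place of the sum, H2afy was called higher at 1.51. Of the recomputed ratios of single histone genes, 141 stayed on their side of the limit, 6 came past it and 1 dropped inside it. Across all genes, quantile normalization gave 5.79% higher and 6.91% lower, and the correction for GC content (9935 genes) 7.24% and 4.93%. A pseudocount of 0.1 gave 998 genes higher and 845 lower, one of 5 gave 249 and 291, a mean of at least 5 FPKM gave 391 and 466, and a 1.5-fold limit gave 1839 and 1566.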

Other observations

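Some genes related to histones have names outside the rule, and were looked up after the values above had been seen. Cenpa, the H3 variant gene of centromeres, was listed at 84.6 FPKM with Nutlin-3a and 98.5 FPKM with DMSO, a log2 ratio of -0.22. Its sum joined a transcript with 14.4 against 37.1 FPKM and another with 67.4 against 59.4 FPKM. Hinfp, which encodes a transcription factor of H4 genes, had 5.52 against 2.003 FPKM, 2.76-fold higher, with a log2 ratio of 1.12. Hils1, a spermatid gene resembling H1, was listed at 0.736 FPKM with Nutlin-3a and at 0 in DMSO.

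Further genes of the chaperone and processing lists, chosen after their values were seen, lay inside the limit. Hira, part of the complex that deposits H3.3, had 13.8 against 7.61 FPKM. The H3 and H4 chaperone genes Asf1a and Asf1b had 8.75 against 4.88 FPKM and 27.2 against 16.9 FPKM. Hat1, the acetyltransferase of new H4, had 116.5 against 72.2 FPKM. The subunits of chromatin assembly factor 1 lay on the other side, with Chaf1a at 24.6 against 28.0 FPKM and Chaf1b at 16.6 against 19.3 FPKM. Lsm10, a part of the U7 particle that cleaves histone messages, had 38.3 against 65.8 FPKM, and Casp8ap2, a factor of histone locus bodies, had 2.28 against 1.02 FPKM.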
